A study of Homo sapiens with 4 samples.

Results

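The genes described here are 60 named genes of the long arm of chromosome 18 (18q), among them SMAD4 and TCF4, in acute myeloid leukaemia cells with and without resistance to a kinase inhibitor. They were chosen by symbol as 18q genes other than BCL2, PMAIP1 and NPC1, and each was read from the probe set chosen by the highest mean signal over the 4 arrays. Because these genes were put together with the values of the same arrays known, their shared direction is given as a description, and nothing is supported with it. Of the 60 genes, 58 were measured, among 18417 genes in all; RBBP8 and RNF125 were not analysed here.

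The comparison is between 2 lines, each on 2 Affymetrix Human Gene 1.0 ST arrays of total RNA. MV4-11R is a drug-resistant line that was grown out of MV4-11 over 3 months under rising PKC412 (midostaurin, a drug that blocks FLT3 and further kinases), and the labels mark its EZH2 expression as low. MV4-11 is the drug-sensitive parent, a human myeloid leukaemia line with an MLL rearrangement and an internal tandem duplication in FLT3. The labels do not say whether PKC412 was present at harvest, whether MV4-11R is 1 clone, or whether the replicates were separate cultures, so the p-values rest on a spread between arrays that may be only technical.

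Chromosome arm 18q carries several parts of the transforming growth factor beta (TGF-beta) pathway. In that pathway a ligand brings receptor kinases together, the receptors phosphorylate SMAD2 and SMAD3, and these bind the common partner SMAD4 and enter the nucleus to act on target genes, while SMAD7 inhibits the receptors and the ubiquitin ligase NEDD4L marks activated SMAD2 and SMAD3 for destruction. TCF4 (also called E2-2) is a basic helix-loop-helix E protein, best known in blood as the factor that plasmacytoid dendritic cells depend on. The remaining genes have no common pathway; what they share is the chromosome arm.

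Levels are log2 signals as deposited, and differences are MV4-11R minus MV4-11, so that a difference of 1 is a doubling. A gene is said to have risen or fallen where limma's 2-sided test, adjusted over all 18417 genes, gave p under 0.05. Most of the 58 genes were higher in MV4-11R: 36 rose (62.1%), none fell, and 22 did not pass. Without array 1 of MV4-11R 22 rose, and with every probe set tested on its own 20 rose. Over all genes 7.92% rose and 7.13% fell. The median difference of the 58 genes was 0.68, against 0.0073 over all genes, and single genes ranged from -0.32 for TCF4 to 1.83 for CABLES1. The 2 genes named at the outset, SMAD4 and TCF4, were not among those that rose. At an unadjusted p under 0.05, 44 of the 58 genes differed, all of them higher in MV4-11R. Over all genes, 5270 of 18417 differed at that threshold, in either direction.

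A run of 4 neighbouring genes shows how closely genes that rose lay beside SMAD4, which did not, so their promoters are printed, each from 250 bases before to 50 after the start that RefSeq lists. In gene order they are ME2 (chr18:50878868-50879167, plus strand), ELAC1 (chr18:50967790-50968089, plus strand), SMAD4 (chr18:51029963-51030262, plus strand) and MEX3C (chr18:51197632-51197931, minus strand), in GRCh38.p14. Capitals mark matches on either strand to 4 motifs: the GC box (GGGCGG or CCGCCC), the CCAAT box (CCAAT or ATTGG), an E-box that E proteins such as TCF4 can bind (CAGGTG or CACCTG) and the SMAD element (CAGAC or GTCTG). No base of these 4 promoters lay in matches to more than 1 kind of motif, while matches of 1 kind may overlap.
ME2: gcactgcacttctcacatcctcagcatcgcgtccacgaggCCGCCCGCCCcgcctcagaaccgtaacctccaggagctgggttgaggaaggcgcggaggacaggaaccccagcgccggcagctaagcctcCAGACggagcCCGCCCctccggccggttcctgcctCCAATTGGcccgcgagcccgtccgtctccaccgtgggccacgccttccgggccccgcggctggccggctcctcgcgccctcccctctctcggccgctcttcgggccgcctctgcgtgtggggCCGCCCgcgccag
ELAC1: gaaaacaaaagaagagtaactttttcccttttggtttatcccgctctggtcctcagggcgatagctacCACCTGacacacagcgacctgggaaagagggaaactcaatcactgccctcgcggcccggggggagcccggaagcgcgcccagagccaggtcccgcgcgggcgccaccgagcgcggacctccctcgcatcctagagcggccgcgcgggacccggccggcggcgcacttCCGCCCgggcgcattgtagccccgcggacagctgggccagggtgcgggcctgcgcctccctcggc
SMAD4: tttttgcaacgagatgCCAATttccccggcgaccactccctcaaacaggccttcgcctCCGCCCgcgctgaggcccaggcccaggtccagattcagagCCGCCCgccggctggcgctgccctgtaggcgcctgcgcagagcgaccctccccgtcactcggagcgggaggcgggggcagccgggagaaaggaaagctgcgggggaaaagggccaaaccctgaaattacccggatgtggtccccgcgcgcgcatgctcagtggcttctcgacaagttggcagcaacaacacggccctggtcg
MEX3C: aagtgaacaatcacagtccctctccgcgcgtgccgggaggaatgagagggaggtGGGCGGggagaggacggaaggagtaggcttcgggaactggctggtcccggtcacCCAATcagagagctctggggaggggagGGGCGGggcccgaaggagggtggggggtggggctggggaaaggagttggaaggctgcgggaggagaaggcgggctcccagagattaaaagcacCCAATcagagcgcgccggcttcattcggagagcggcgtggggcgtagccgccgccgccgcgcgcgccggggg

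The 4 promoters were alike in composition. ME2 held 4 GC boxes, 2 CCAAT boxes and 1 SMAD element, and its GC content was 73.7%. ELAC1 held 1 GC box and 1 E-box, at 68.7% GC. SMAD4 held 2 GC boxes and 1 CCAAT box at 66.7% GC, and MEX3C held 2 GC boxes and 2 CCAAT boxes at 68.7% GC. None of the 4 held a TATA box (TATAAA or TTTATA). These are matches of letters and no evidence of a bound site.

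The levels of these neighbours differed between the lines in 3 of the 4 cases. ME2, the mitochondrial malic enzyme, read 11.89 and 11.67 in MV4-11R, against 10.91 and 10.80 in MV4-11, and rose 1.90-fold (difference 0.93, SE 0.13, adjusted p = 0.008). ELAC1, an endonuclease that acts on tRNA ends, read 8.66 and 7.94 in MV4-11R, against 6.90 and 7.04 in MV4-11, and rose 2.52-fold (difference 1.33, SE 0.23, adjusted p = 0.0167). MEX3C, an RNA-binding ubiquitin ligase, read 11.18 and 10.72 in MV4-11R, against 10.12 and 10.07 in MV4-11, and rose 1.81-fold (difference 0.86, SE 0.17, adjusted p = 0.0246). In all 3 genes both MV4-11R arrays lay above both MV4-11 arrays, with array 1 of MV4-11R the higher. The call for MEX3C was lost without array 1 of MV4-11R or without either MV4-11 array. SMAD4, between ELAC1 and MEX3C in gene order, read 10.83 and 10.75 in MV4-11R, against 10.89 and 10.77 in MV4-11. Those ranges overlapped, and the difference of -0.05 (SE 0.11, adjusted p = 0.861) had a 95% interval from -0.32 to 0.23. As the RNA is from bulk culture, fewer cells with a transcript and less of it per cell cannot be told apart, here and below.

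**Figure D1:**
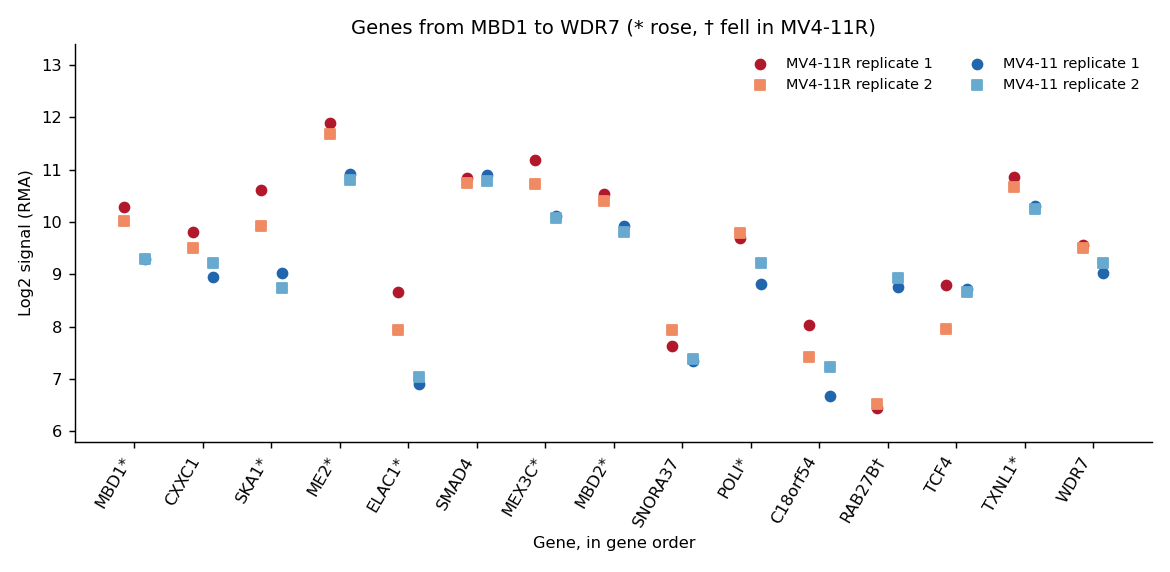
Log2 signal (vertical axis) on each of the 4 arrays for genes above background from MBD1 to WDR7, in gene order (horizontal axis, not to scale); red and orange points are MV4-11R arrays and blue points MV4-11 arrays, a star marks a gene that rose and a dagger one that fell. ME2, ELAC1 and MEX3C lie higher in MV4-11R around SMAD4, whose points overlap. RAB27B, near TCF4, lies lower at 6.45 and 6.52 in MV4-11R, against 8.75 and 8.93 in MV4-11.

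Of the 4 TGF-beta signalling genes on the arm, 1 rose, and their median difference was 0.15. SMAD2, the receptor-activated member, read 10.72 and 10.54 in MV4-11R, against 10.03 and 9.88 in MV4-11, and rose 1.6-fold (difference 0.67, SE 0.12, adjusted p = 0.0194). Its second probe set read 9.60 and 9.25 in MV4-11R, against 8.80 and 8.75 in MV4-11, a difference of 0.65. The SMAD2 call was lost without array 1 of MV4-11R and without array 2 of MV4-11. SMAD7, the inhibitory member, read 7.30 and 7.32 in MV4-11R, against 7.25 and 7.13 in MV4-11 (difference 0.12, adjusted p = 0.569). NEDD4L was dim in both lines, at 4.72 and 4.89 in MV4-11R, against 4.58 and 4.68 in MV4-11 (difference 0.18, adjusted p = 0.418). Its level is under the background guide of 6.24, the 95th percentile of 338 olfactory receptor genes, which blood cells rarely express.

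TCF4 differed more between the MV4-11R arrays than between the lines. It read 8.78 and 7.96 in MV4-11R, against 8.72 and 8.66 in MV4-11, with array 2 of MV4-11R alone below the others. The difference was -0.32 (SE 0.26, 95% interval -0.95 to 0.32, adjusted p = 0.515). Without array 1 of MV4-11R it was -0.73 and passed as lower (adjusted p = 0.0327), and without array 2 of MV4-11R it was 0.10, so 1 array decides both the direction and the call. RefSeq lists 10 starts for TCF4, and the array's probe set gives 1 value for them all, so isoforms were not separated.

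Among the 11 DNA-binding factors and cofactors, TCF4 included, 3 rose, with a median difference of 0.22. TAF4B, a variant subunit of the general factor TFIID, read 8.27 and 8.29 in MV4-11R, against 6.61 and 6.59 in MV4-11, and rose 3.19-fold (difference 1.67, SE 0.10, adjusted p = 0.00117). Its replicates agreed more closely than those of CABLES1 or B4GALT6, the only genes of the 58 with a larger difference. ZNF24, a zinc finger factor, read 10.56 and 10.50 in MV4-11R, against 9.73 and 9.80 in MV4-11 (1.70-fold, adjusted p = 0.00876). The third, the SUMO ligase PIAS2, rose 1.67-fold (difference 0.74), a call lost without array 1 of MV4-11R or without either MV4-11 array. ADNP2 was 0.55 higher, with all MV4-11R values above all MV4-11 values, but missed the threshold (adjusted p = 0.0671). NFATC1, a calcium-regulated factor, was 0.22 higher and ZNF397 was 0.27 higher, and neither passed. SETBP1, a gene mutated in some myeloid neoplasms, differed by 0.07, ZNF521 by 0.09 and KCTD1 by -0.02, all 3 at or under the background guide, and ZNF532 differed by -0.17.

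The chromatin group rose in 4 of its 5 genes, with a median difference of 0.81. ESCO1, which acetylates cohesin, read 8.62 and 8.78 in MV4-11R, against 7.57 and 7.79 in MV4-11, and rose 2.03-fold (difference 1.02, SE 0.13, adjusted p = 0.00643). MBD1, a reader of methylated CpG, read 10.29 and 10.01 in MV4-11R, against 9.30 and 9.29 in MV4-11 (1.81-fold, adjusted p = 0.0113). SS18, a subunit of BAF chromatin remodellers, rose 1.75-fold. INO80C, a subunit of the INO80 remodeller, read 6.99 and 6.65 in MV4-11R, against 6.04 and 6.01 in MV4-11, where it is under the background guide; its 1.74-fold rise was lost without either MV4-11 array. CXXC1, which brings a histone H3 lysine 4 methyltransferase to CpG islands, was 0.58 higher, with no overlap between the lines, and did not pass (adjusted p = 0.0577).

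Genes of RNA handling and translation had the highest median of the 9 role groups, 1.0, and 6 of 7 rose. SNRPD1, an Sm protein of the spliceosome, read 9.90 and 9.54 in MV4-11R, against 8.62 and 8.37 in MV4-11, and rose 2.33-fold (difference 1.22, SE 0.17, adjusted p = 0.008). IMPACT, which restrains the stress kinase GCN2, read 10.48 and 10.21 in MV4-11R, against 9.33 and 9.29 in MV4-11 (2.04-fold, adjusted p = 0.00667). ELP2, an Elongator subunit, read 9.32 and 9.24 in MV4-11R, against 8.21 and 8.35 in MV4-11 (2.0-fold, adjusted p = 0.00477). None of these 3 genes had overlapping lines. CTIF, a translation factor, rose 1.65-fold, a call lost without array 1 of MV4-11R or array 2 of MV4-11. The call was also lost when quantile normalization was repeated. RPRD1A, which binds the tail of RNA polymerase II, was 0.51 higher and did not pass (adjusted p = 0.106). ELAC1 and MEX3C, given above, complete the group.

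In the glycosylation and lipid group 4 of 5 genes rose, with a median difference of 0.96. B4GALT6, a lactosylceramide synthase, read 8.0 and 7.78 in MV4-11R, against 6.34 and 5.85 in MV4-11, and rose 3.47-fold (difference 1.79, SE 0.19, adjusted p = 0.00386). Its MV4-11 values sit around the background guide, and RMA compresses differences of dim genes. PIGN, an enzyme that adds ethanolamine phosphate to the glycosylphosphatidylinositol (GPI) anchor, read 9.82 and 9.58 in MV4-11R, against 8.14 and 8.15 in MV4-11, and rose 2.93-fold (difference 1.55, SE 0.12, adjusted p = 0.00194). KDSR, an early enzyme of ceramide synthesis, read 9.24 and 9.04 in MV4-11R, against 8.03 and 8.33 in MV4-11 (1.95-fold, adjusted p = 0.0112). The lipase ABHD3 rose 1.61-fold, a call lost without array 1 of either line. GALNT1, which starts O-linked glycans, was 0.42 higher (adjusted p = 0.0764).

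Metabolic and transport genes rose in 5 of 7 cases, with a median difference of 0.93. ACAA2, the mitochondrial thiolase of fatty acid oxidation, read 8.90 and 8.65 in MV4-11R, against 7.46 and 7.32 in MV4-11, and rose 2.60-fold (difference 1.38, SE 0.13, adjusted p = 0.00308). HDHD2 read 12.10 and 11.70 in MV4-11R, against 10.85 and 10.97 in MV4-11 (1.98-fold, adjusted p = 0.0131). SLC39A6, a zinc importer, read 10.41 and 10.22 in MV4-11R, against 9.39 and 9.36 in MV4-11 (1.92-fold, adjusted p = 0.0062). All 3, like ME2, were higher on each MV4-11R array than on either MV4-11 array. TXNL1, a thioredoxin-like protein of the proteasome, rose 1.40-fold, a call lost without array 1 of MV4-11R or without either MV4-11 array. The dipeptidase CNDP2 was 0.32 higher with overlapping lines, at 10.33 and 9.71 in MV4-11R, against 9.72 and 9.68 in MV4-11. MOCOS, the sulfurase of the molybdenum cofactor, was under the background guide and differed by 0.34.

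Of 9 genes of membrane traffic and autophagy 6 rose, with a median difference of 0.68. IER3IP1, a small protein of the endoplasmic reticulum, read 10.06 and 9.998 in MV4-11R, against 8.47 and 8.51 in MV4-11, and rose 2.91-fold (difference 1.54, SE 0.11, adjusted p = 0.00154). Its second, dimmer probe set differed by 1.0. OSBPL1A, a lipid-binding protein of late endosomes, read 10.03 and 9.62 in MV4-11R, against 8.80 and 8.76 in MV4-11 (2.07-fold, adjusted p = 0.011). LMAN1, the cargo receptor that carries clotting factors V and VIII out of the endoplasmic reticulum, rose 1.81-fold. DYM, a Golgi protein, rose 1.6-fold, PIK3C3 (VPS34, the lipid kinase that starts autophagosomes) 1.54-fold and VPS4B, an ATPase that recycles ESCRT-III, 1.51-fold; each of these 3 calls was lost without array 1 of MV4-11R and without array 2 of MV4-11, those of PIK3C3 and VPS4B also without array 1 of MV4-11. EPG5, an autophagosome tether, was 0.69 higher, WDR7 0.40 higher and the dim flippase ATP8B1 0.07 higher, and none of the 3 passed.

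Signalling and ubiquitin genes rose in 5 of 7 cases, with a median difference of 0.61. CABLES1, an adaptor of cyclin-dependent kinases, read 9.86 and 9.35 in MV4-11R, against 7.96 and 7.58 in MV4-11, and rose 3.56-fold (difference 1.83, SE 0.21, adjusted p = 0.00491). RNF138, a ubiquitin ligase of DNA end resection, read 10.26 and 9.88 in MV4-11R, against 9.46 and 9.29 in MV4-11 (1.62-fold, adjusted p = 0.0357). The kinase ROCK1 rose 1.59-fold, MIB1, a ligase of Notch ligands, 1.53-fold and MALT1, the protease of antigen receptor signalling to NF-kB, 1.43-fold. Of the 5 that rose, all but CABLES1 lost their call when some single array was left out: RNF138 without array 1 of MV4-11R or either MV4-11 array, ROCK1 and MIB1 without array 1 of either line, and MALT1 whichever of the 4 was left out. RIOK3, an atypical kinase, was 0.36 higher (adjusted p = 0.133). PHLPP1, a phosphatase that acts on AKT, read 10.45 and 10.14 in MV4-11R, against 10.28 and 10.25 in MV4-11, a difference of 0.03.

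Of the 3 cytoskeleton and spindle genes 2 rose. HAUS1, a subunit of the augmin complex that branches spindle microtubules, read 11.98 and 11.85 in MV4-11R, against 11.06 and 11.02 in MV4-11 (1.83-fold, adjusted p = 0.0067). MAPRE2, a microtubule end-binding protein, read 11.05 and 11.23 in MV4-11R, against 10.58 and 10.69 in MV4-11, and rose 1.41-fold, a call lost whichever of the 4 arrays was left out. DTNA, a dystrophin-associated protein, was 0.39 higher with overlapping values and did not pass.

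**Figure D2:**
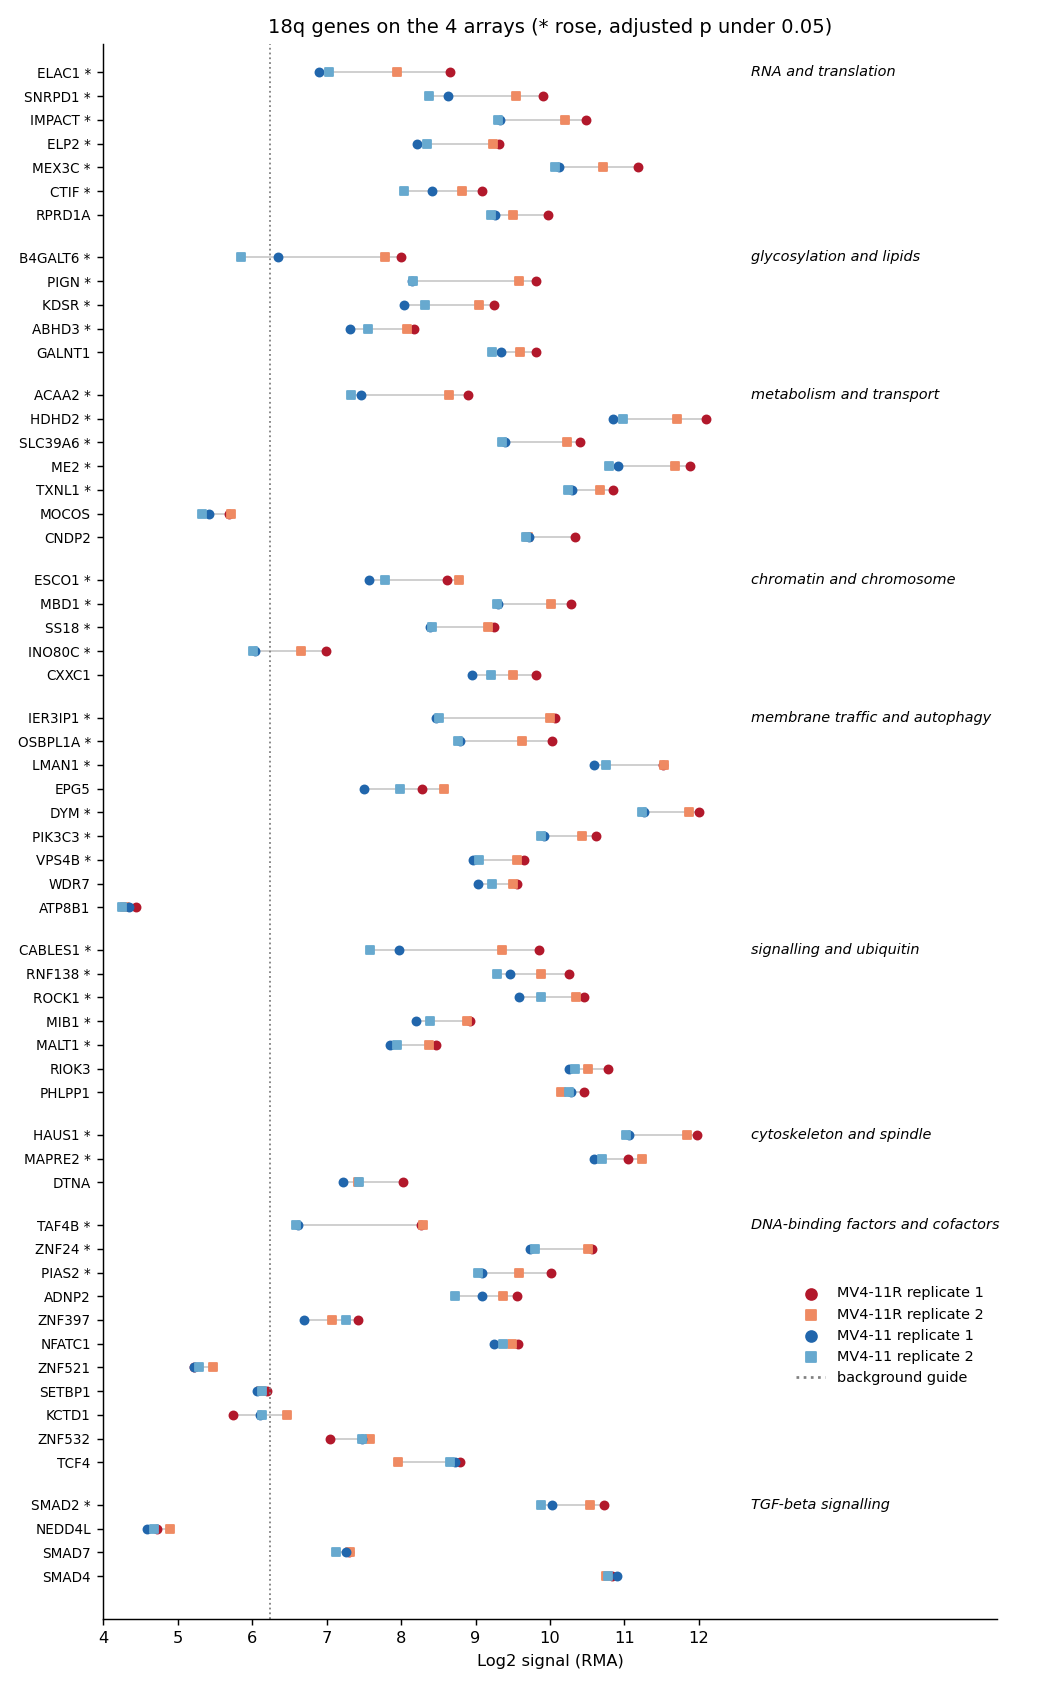
Log2 signal (horizontal axis) of the 58 measured 18q genes, by role; red circles and orange squares are MV4-11R arrays 1 and 2, dark and light blue symbols MV4-11 arrays 1 and 2, stars mark the 36 genes that rose, and the dotted line is the background guide of 6.24. In 47 genes both MV4-11R points lie right of both MV4-11 points, and in the other 11, SMAD4 and TCF4 among them, the lines overlap.

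Across all 58 genes, both MV4-11R arrays were above both MV4-11 arrays in 47 (81.0%), the lines overlapped in 11, and none lay wholly lower. Over all genes, 29.6% had both MV4-11R arrays above. In 12 of the 58 genes the rise was at least 2-fold, against 362 of all 18417 genes. The MV4-11R arrays were not equal: the median level of the 58 genes was 9.73 and 9.50 in MV4-11R, against 8.76 and 8.69 in MV4-11, and array 1 of MV4-11R was above array 2 in 47 of the 58 genes, against 55.7% of all genes. Calls were gained without array 2 of MV4-11R by CXXC1, RPRD1A, DTNA and CNDP2, without array 1 of MV4-11 by ADNP2 and without array 2 of MV4-11 by EPG5. Without array 1 of MV4-11R the median difference was 0.59, and without array 2 of MV4-11R it was 0.74. The 6 genes at or under the background guide, by their mean over the 4 arrays, had a median difference of 0.08 and none rose. Above the guide the medians were 0.69 for 9 genes up to a level of 8, 0.73 for 28 genes from 8 to 10 and 0.67 for 15 brighter genes, so the medians of these 3 classes were alike.

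Along the arm, the difference was spread from the centromere to the tip. In 12 successive blocks of 10 or fewer 18q genes above the guide, listed genes and others together, every block had a median above 0, from 0.25 in the block from C18orf54 to ATP8B1-AS1, which holds RAB27B and TCF4, to 0.95 in the block from NPC1 to RNF138, where 9 of 10 rose. The listed genes, chosen with these values known, made up from 1 to 7 genes of a block. Block medians without them were not computed. The 144 other measured 18q genes had a median of 0.08, with 30 that rose and 2 that fell (RAB27B and ONECUT2, the second a call lost whichever of the 4 arrays was left out). For the 67 of them above the guide the median was 0.53, with 29 that rose. Of the listed genes 52 of 58 were above the guide. Among all genes above the guide 10.6% rose.

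On the short arm the block medians lay near 0 past the block next to the centromere, while single genes ranged more widely. Of 37 genes on 18p above the guide 4 rose and 2 fell, with a median difference of 0.07. The 4 that rose all lay in the block of 10 genes next to the centromere, from FAM210A to TUBB6, whose median was 0.33; those of PTPN2 and CEP192 were lost without array 1 of MV4-11R or without either MV4-11 array, that of CEP192 also without array 2 of MV4-11R, which leaves SEH1L and FAM210A. The 3 blocks beyond it had medians of 0.04, -0.08 and 0.16. SEH1L, a nucleoporin, was 1.34 higher in MV4-11R and FAM210A, a mitochondrial protein, 1.10 higher. TWSG1, a modulator of bone morphogenetic protein signalling that lies farther out, fell by 1.32. TYMS, the other 18p gene that fell, differed by -0.67. METTL4 was 0.75 higher and did not pass. DNA copy number was not analysed here.

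**Figure D3:**
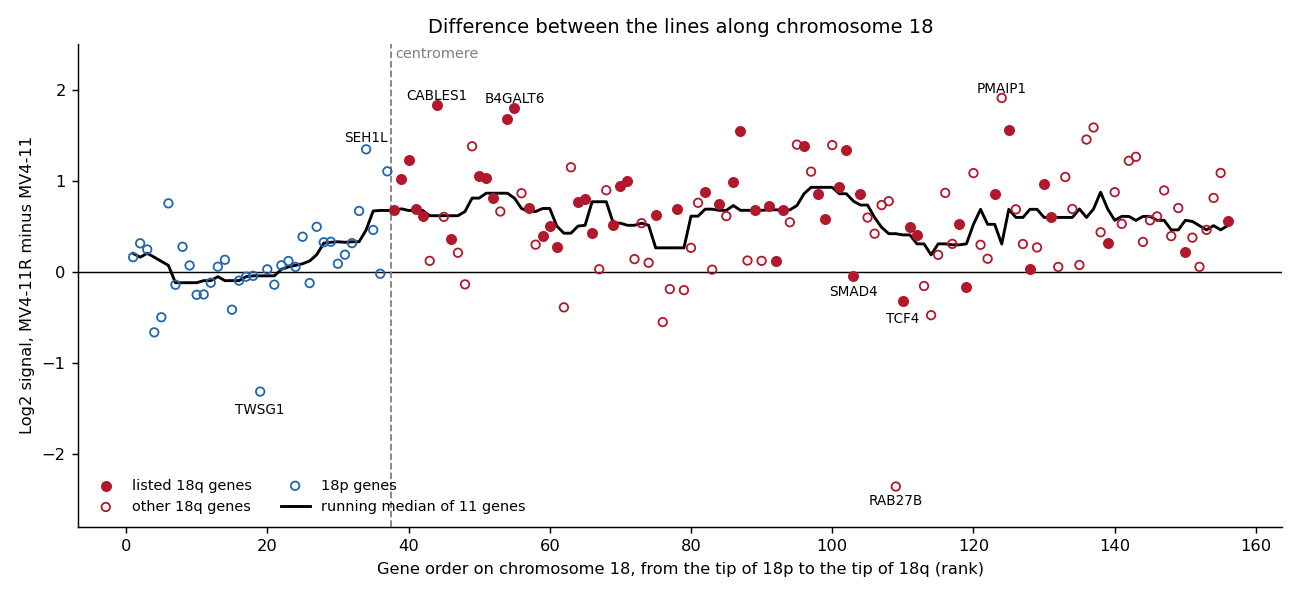
Difference in log2 signal, MV4-11R minus MV4-11 (vertical axis), for genes of chromosome 18 above the background guide in gene order from the tip of 18p to the tip of 18q (horizontal axis, rank); filled red points are the listed 18q genes, open red points other 18q genes, open blue points 18p genes, and the black line is a running median of 11 genes. The line stays above 0 along the whole of 18q and near 0 over most of 18p, and SMAD4, TCF4 and RAB27B lie below it.

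Of the 67 other 18q genes above the guide 29 rose and 2 fell. Named here are those of largest difference, with BCL2, NPC1 and genes near SMAD4. RAB27B, a small GTPase of secretory vesicles near TCF4, fell 5.13-fold (difference -2.36, SE 0.12, adjusted p = 0.000568). It read 6.45 and 6.52 in MV4-11R, against 8.75 and 8.93 in MV4-11. PMAIP1 (NOXA), a proapoptotic BH3 protein, rose 3.75-fold, with 10.58 and 10.45 in MV4-11R, against 8.45 and 8.77 in MV4-11 (adjusted p = 0.00167). TIMM21, a mitochondrial import protein, was 1.58 higher and rose. The survival protein BCL2 was 0.27 higher (adjusted p = 0.300) and the cholesterol transporter NPC1 differed by -0.14 (adjusted p = 0.611), and neither passed. In the stretch around SMAD4, the spindle protein SKA1 rose (difference 1.39), the methyl-CpG reader MBD2 rose (0.59) and the DNA polymerase POLI rose (0.73); these 3 were picked for their position after their values were seen. Leaving out array 1 of MV4-11R or of MV4-11 ended the calls of MBD2 and POLI, as did array 2 of MV4-11 for MBD2 and array 2 of MV4-11R for POLI.

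By chromosome, the share of genes above the guide that rose was 54.6% on 18q and 10.8% on 18p. The 18q share pools the listed genes (69.2%), chosen with these values known, with the other 18q genes (43.3%). For genes off chromosome 18 the share was 10.2%, with a median difference of 0.035. Other chromosomes moved too: 17.7% rose on chromosome 19, 16.8% on chromosome 20 and 2.39% on chromosome 13, where the median difference was -0.50. These shares describe the arrays; no test was made between chromosomes.

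**Figure D4:**
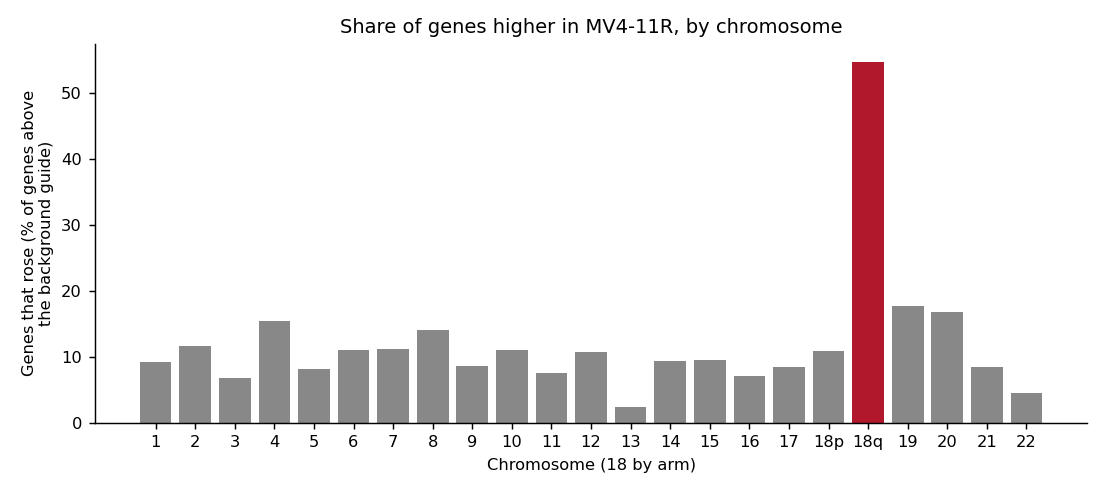
Percent of genes above the background guide that rose in MV4-11R (vertical axis, from 0) for each autosome, with chromosome 18 divided by arm (horizontal axis). The red bar for 18q, listed and other genes together, stands at 54.6%, next to 10.8% for 18p and 17.7% for chromosome 19. For the 18q genes that are not listed the share was 43.3%.

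Other genes of the TGF-beta pathway lie outside 18q, all but TGIF1 (on 18p) on other chromosomes, and few of them passed. Most counts in these lists are near the 7.92% of all genes that rose and the 7.13% that fell, and nothing is read from them about the pathway. Of 11 ligands 1 rose, GDF11 (difference 0.67), and the median was 0.16. Of 10 receptors 1 rose, TGFBR3 (0.62), a co-receptor under the background guide, and the median was -0.05. Among 15 other SMADs and SMAD regulators 1 rose and 3 fell, with a median of 0.04. SMAD1, which relays bone morphogenetic protein signals, read 6.82 and 7.54 in MV4-11R, against 5.83 and 5.92 in MV4-11, under the background guide, and rose (difference 1.30). SMAD5, which has the same role, fell by 0.83, the ubiquitin ligase SMURF1 fell by 0.58, and SMAD3, the partner of SMAD2, fell by 0.49 (adjusted p = 0.0455; SMAD3 was picked after its values were seen). Each of these 3 falls was lost without array 1 of MV4-11R or without either MV4-11 array, that of SMAD3 also without array 2 of MV4-11R.

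Of 11 TGF-beta target genes 2 rose and 1 fell, with a median of -0.02. TGFBI, a matrix protein named for its induction by TGF-beta, fell 4.92-fold, to 7.16 and 6.63 in MV4-11R, against 9.17 and 9.22 in MV4-11. ID1, an inhibitor of E proteins, was 1.06 higher and JUNB, an AP-1 subunit, 0.69 higher; both passed, with calls lost without array 1 of MV4-11, and ID1 also without array 2 of MV4-11 and JUNB without array 2 of MV4-11R. The calls of GDF11 and TGFBR3 were lost without array 2 of MV4-11R or array 1 of MV4-11, that of GDF11 also without array 2 of MV4-11 and that of TGFBR3 without array 1 of MV4-11R. Among 10 E proteins and their helix-loop-helix partners ID1 alone rose, with a median of -0.0015 for the list.

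The plot of partner genes takes 10 listed 18q genes that belong to complexes or pathways whose other parts are encoded outside 18q, all but CHMP1B (on 18p) on other chromosomes. Among all genes above the background guide 10.6% rose, a share against which the counts of these small lists are to be read. Among 6 Sm proteins beside SNRPD1 1 rose (SNRPD2), with a median of 0.39, and all 6 were higher on both MV4-11R arrays. Among all genes above the guide, 35.9% had both MV4-11R arrays above both MV4-11 arrays, and nothing is read from the 6. Beside HAUS1, 2 of 6 augmin genes rose (HAUS2 and HAUS8), with a median of 0.40. Beside PIGN, 4 of 18 GPI anchor genes rose, with a median of 0.31, led by PIGW (difference 1.69) and PIGU (0.82). Partners of SS18 in BAF rose in 2 of 14 cases (SMARCA4 and SMARCC1), with a median of -0.06, and those of INO80C in 2 of 12 (RUVBL2 and TFPT), with a median of 0.14.

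None rose among 4 Elongator genes beside ELP2 (median 0.10; ELP6 was 0.39 higher) or 8 COMPASS genes beside CXXC1 (median 0.10; WDR5 was 0.40 higher). The same held for 9 genes of VPS4 and ESCRT-III beside VPS4B (median 0.19; CHMP2B was 0.44 higher) and 7 partners of MALT1 (median -0.15; MAP3K7 differed by -0.38). Of 6 partners of PIK3C3 none rose and UVRAG fell by 0.67, with a median of -0.08. At an unadjusted p under 0.05, limma's test would have called 1 gene each of the Elongator and COMPASS lists and 2 genes each of the VPS4, MALT1 and PIK3C3 lists, in either direction. Among all genes above the guide, 4700 of 12654 had such a p, a share that none of these lists exceeds. For RBBP8, not analysed here itself, 2 of 7 partners in end resection rose (BRCA1 and NBN), with a median of 0.46. Several of these partners lie on chromosomes 19 and 20, where more genes rose. Calls of SNRPD2, HAUS2, HAUS8, PIGU, SMARCA4, SMARCC1, UVRAG, BRCA1 and NBN were each lost without array 2 of MV4-11, and most of them without others too.

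**Figure D5:**
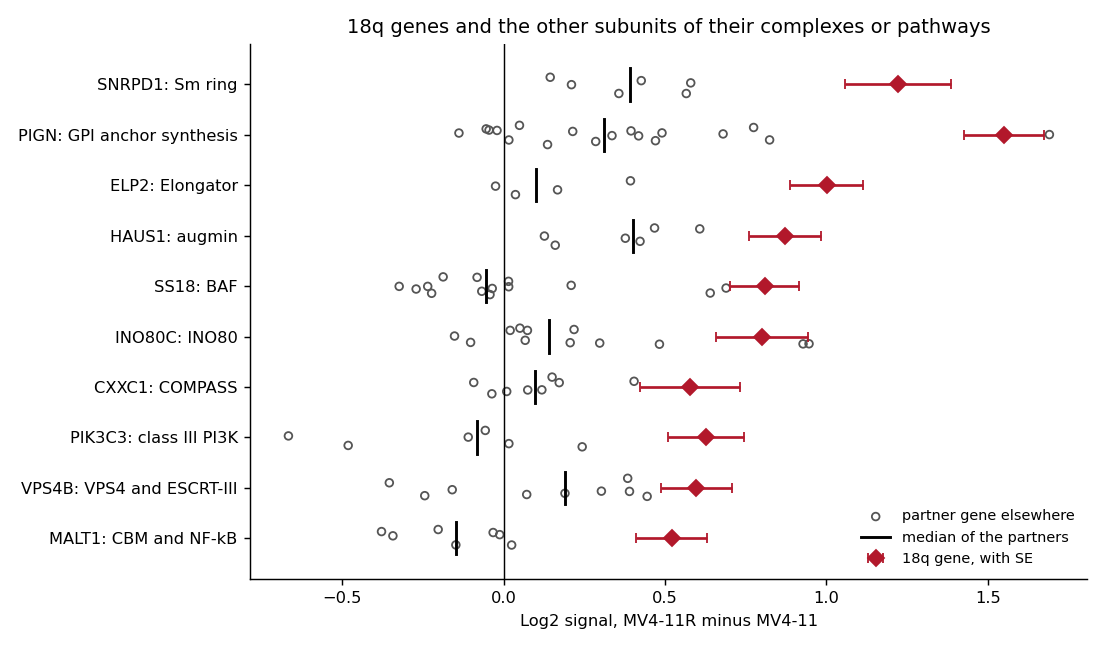
Difference in log2 signal, MV4-11R minus MV4-11 (horizontal axis), for 10 listed 18q genes (red diamonds, bars are limma's SE) and for the partner genes of their complexes or pathways outside 18q (open grey points, spread vertically for legibility; black bars are their medians). SNRPD1 at 1.22 lies right of its 6 partners, whose median is 0.39, while PIGN at 1.55 has a GPI anchor gene, PIGW, to its right at 1.69.

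Promoter composition was compared over the listed genes with 1 RefSeq start, 30 of the 48 that matched a RefSeq promoter. The 23 that rose had a median GC content of 67% and a median ratio of observed to expected CpG of 0.877. The 7 that did not pass had medians of 67% and 0.784, and 10501 tested genes with 1 start had 63.3% and 0.784. A GC box was in 21 of the 23 promoters that rose, in 6 of the 7 others, in 60.5% of those of all tested genes with 1 start and in 45.0% of all 35116 promoters. A CCAAT box was in 11 of 23, 4 of 7, 37.1% and 34.6%, in the same order. The SMAD element was in 9 of 23, 2 of 7, 44.1% and 45.3%, and the E-box in 2 of 23, 2 of 7, 19.6% and 20.6%. TATAAA or its reverse was in 2 of 23, none of 7, 9.68% and 11.5%. These sets were not matched for level. Of the 58 listed genes 52 were above the background guide, against 12654 of all 18417 genes.

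The arrays were alike in level over all probe sets, with medians from 6.75 to 6.78, a likeness that RMA's quantile normalization brings about. Over the genes tested the medians were 7.42 and 7.42 in MV4-11R, against 7.34 and 7.43 in MV4-11. Replicates correlated at 0.993 in MV4-11R and 0.994 in MV4-11, against 0.968 to 0.974 between the lines. In all, 2772 genes passed, 1458 that rose and 1314 that fell. EZH2, which the labels call low in MV4-11R, read 9.90 and 9.29 in MV4-11R, against 9.75 and 9.74 in MV4-11 (difference -0.14, adjusted p = 0.734), which did not pass the test. All 9 myeloid markers measured were above the background guide by their mean over the 4 arrays, CD14 through MV4-11R alone (7.24 and 6.49 in MV4-11R, against 6.05 and 6.13 in MV4-11); none rose and 2 fell (CSF1R by 1.73 and LYZ by 0.69), with summed linear signals of 14910 and 17946 in MV4-11R, against 19011 and 21762 in MV4-11. Of 10 T and NK cell markers only NKG7 rose (0.94), the list's sums were 3025 and 3200 in MV4-11R, against 1821 and 1865 in MV4-11, and CD3D, CD3E and CD3G were under the guide. NKG7 made up most of these sums, at log2 11.29 and 11.37 in MV4-11R, against 10.33 and 10.44 in MV4-11. Markers of B cells (6 measured, PAX5 rose and CD79B fell), erythroid and megakaryocytic cells (8, ITGA2B fell) and epithelium or fibroblasts (10, LUM rose and KRT18 fell) had sums of 667 to 709 in MV4-11R, against 698 to 767 in MV4-11 for B cells, 1050 to 1169, against 1056 to 1089, for the erythroid list and 986 to 1071, against 1139 to 1159, for the last. The calls of LYZ, PAX5, ITGA2B, LUM and KRT18 were each lost without array 2 of MV4-11 and at least 1 other array. LUM was under the background guide in both lines, at 4.50 and 4.36 in MV4-11R, against 3.75 and 4.01 in MV4-11. Over all genes 7.92% rose and 7.13% fell. The part of the marker genes in the 18q values was not tested.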

How the data were processed

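Total RNA of 2 cell lines was labelled with biotin and hybridised to 4 arrays, per the labels' protocols. The deposited table holds log2 signal for 33297 probe sets, made by the authors with RMA (background correction, quantile normalization, probe summary) in the program Affymetrix Expression Console, as the submitters' processing notes record; versions and the genome build are not given in the sources used here. RMA compresses differences of dim genes, and the number of arrays limits the precision.

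Platform annotation gave 1 gene to 19460 probe sets, several to 1754 and none to 12083; only the first kind was used. Symbols and gene order came from RefSeq GRCh38.p14 by Entrez ID (28 genes unmatched). The brightest probe set over the 4 arrays stood for each of the 769 genes with more than 1. RBBP8 and RNF125 had no such probe set in the table used. limma 3.58.1 in R 4.3.3 (lmFit, eBayes) compared MV4-11R with MV4-11 over 18417 genes, with Benjamini-Hochberg adjustment, no level filter and 2 residual degrees of freedom; the fit was tested on simulated data. The background guide is the 95th percentile of 338 olfactory receptor genes (6.24; their median was 4.89, and that of all genes 7.41). No control spots or detection calls were used.

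The genes and lists were chosen with earlier results of these data known. Named with values were SMAD2, SMAD4, SMAD7, TCF4, the 15 listed genes of largest difference, the 2 largest of each role, up to 2 passing genes per direction of each partner list (or its largest), and the 3 largest of the other genes on each arm. Array values of ME2, MEX3C, INO80C, CNDP2 and PHLPP1, outside that rule, were added after they were seen, and every other listed gene has its difference or fold. Deviations of same-numbered arrays from their line's mean correlated at 0.262; with 2 pairs and no shared day in the labels, they were not treated as pairs. Alternatives covered centring, quantile normalization, filters on level, probe set choice, the prior variance, a replicate block and each array left out.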

Additional observations from a re-analysis of the deposited data

How the results depend on the processing

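The count of listed 18q genes that rose, 36, was 35 to 39 under centring, renewed quantile normalization, both level filters, the mean of probe sets, a level-dependent prior and the replicate block, and 20 with every probe set tested on its own. Leaving out 1 array gave 22 to 38, the fewest without array 1 of MV4-11R and 25 without either MV4-11 array; the count that fell was 0 to 1 (TCF4). Of the 36, 21 kept their call without each array and 19 under all 12 settings. Genes passing overall numbered 2772, with 1505 for every probe set and 1588 to 2479 leaving out 1 array. With the replicate block 39 listed genes rose and 3642 genes passed; the numbers were not shown to pair the arrays. The median of the other 18q genes, 0.08, was 0.46 above the 25th percentile of level, 0.53 above the background guide and 0.063 to 0.145 leaving out 1 array. PHLPP1 turned to -0.0038 under centring, which shifted all genes by -0.0351. Leaving out 1 array turned the sign of genes that did not pass: KCTD1 (-0.38 to 0.34), PHLPP1 (-0.12 to 0.18), SMAD4 (-0.11 to 0.015), TCF4 (-0.73 to 0.10), ZNF397 (-0.016 to 0.55), ZNF521 (-0.029 to 0.22), ZNF532 (-0.43 to 0.10), EZH2 (-0.45 to 0.16), NPC1 (-0.30 to 0.021) and TCF12 (-0.11 to 0.020). With 2 arrays a line, differences near the spread between arrays could not be called.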

Other observations

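Of 26 measured paralogues of the listed 18q genes on other chromosomes 2 rose and 5 fell, with a median difference of -0.04; over all genes 7.92% rose and 7.13% fell. ME1, the cytosolic malic enzyme and paralogue of ME2, read 6.82 and 6.63 in MV4-11R, against 5.04 and 4.86 in MV4-11, where it is under the background guide, and rose (difference 1.77, SE 0.13, adjusted p = 0.00159). B4GALT5, the other lactosylceramide synthase beside B4GALT6, read 12.05 and 12.34 in MV4-11R, against 11.13 and 11.31 in MV4-11, and rose 0.97 on the log2 scale. MAPRE3, a paralogue of MAPRE2, fell by 1.67, to 6.76 and 7.05 in MV4-11R, against 8.5 and 8.66 in MV4-11. DTNB, the paralogue of DTNA, fell by 0.60, a call lost without array 2 of MV4-11R or without either MV4-11 array.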
